A study of Mus musculus with 6 samples.

Results

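The collagen chains of cultured muscle stem cells (MuSCs) were followed through every row of the expression table whose gene symbol is Col, a number, a and a number, such as Col5a1. The rule took 40 of the 18943 genes in the table and used no measured value. The RNA came from FACS-purified MuSCs of C57BL/6 mice, genotype WT and 8 weeks old, kept in culture for 5 days with the solvent DMSO, with endothelin-3 (ET-3) or with neurotensin (NT), 2 peptides that act through G protein-coupled receptors. The labels give 100 nM for both ligands, while the study's methods name other concentrations, so the dose is given here as labelled. Each of the 3 groups had 2 libraries. The labels do not say that these came from separate cultures or animals, so the p-values measure the spread between these libraries, which may be technical. The series' design text speaks of triplicates, and the study describes its plotted RNA-seq points as means over several biological samples. Whether a library here is itself such a pool cannot be told from the labels.

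Collagens are built from 3 chains wound into a triple helix, and each chain is the product of its own gene. Fibrillar collagens form the banded fibrils of connective tissue, network collagens form sheets such as the basement membrane, FACIT collagens (fibril-associated collagens with interrupted triple helices) sit on the surface of fibrils, and transmembrane collagens stay anchored in the cell membrane until their outer part is shed. In muscle, MuSCs lie between the myofibre and its basement membrane. The calcitonin receptor, which MuSCs at rest carry, has been described as binding type V collagen that these cells make themselves.

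The values are read counts that were multiplied by 1 factor per library and rounded, and they summed to between 4214458 and 4600575 per library. The reads behind them were estimated at between 3629074 and 5396233 per library, so that at a value of 100 counting error alone is between 8.84% and 10.9%. Within the ET-3 pair and within the NT pair the spread was close to that of counting alone (mean chi-square per gene of 0.859 and 0.927, where counting error gives about 1), while the DMSO pair had 1.48. Over the collagen chains alone the same measure was 1.01 for ET-3, 1.54 for NT and 2.33 for DMSO. For this reason the counts of changed chains are also given with each treated pair taken as 1 sample. The cells carried the markers of MuSCs and myoblasts in every library: Pax7, which marks MuSCs, was at 857 and 1070 in DMSO, at 1754 and 1730 in ET-3 and at 1653 and 1599 in NT, and Myod1, the myoblast determination factor, lay between 1100 and 1539. Myog, the factor of terminal differentiation, was at 1157 and 1335 in DMSO, at 31 and 38 in ET-3 and at 31 and 28 in NT. The whole myogenic list (10 genes) summed to 14620 and 15993 in DMSO, 12495 and 12191 in ET-3 and 11154 and 10552 in NT. In each comparison 2 of the 10 were called lower, Myog and Cdh15, and none higher. Cdh15, which MuSCs also carry, was at 1547 and 1746 in DMSO, 483 and 462 in ET-3 and 496 and 436 in NT.

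Among markers of other cell types, the fibroblast list (7 genes in the table) summed to 79 and 84 in DMSO, 65 and 80 in ET-3 and 89 and 96 in NT. Its genes moved in different directions. Dcn was at 9 and 17 in DMSO and between 0 and 2 in the treated libraries, and Pdgfra lay between 20 and 44. Cd248 was called lower in each comparison, from 18 and 17 in DMSO to 1 and 3 in ET-3 and 6 and 6 in NT. Ly6a went up from 27 and 18 in DMSO to 37 and 43 in ET-3 and 38 and 52 in NT, by less than 2-fold (log2 fold change 0.83 and 0.98). The tenocyte list (5 genes) summed to 630 and 697 in DMSO and to between 377 and 451 in the treated libraries. Scx held most of that sum and was not called, Fmod was called lower in each comparison, and Mkx went from 12 and 32 in DMSO to between 38 and 47, called higher under ET-3 alone (log2 fold change 1.13, limma adjusted p 0.0219, against 0.97 under NT). The smooth muscle and pericyte list (8 genes) summed to 4423 and 5032 in DMSO, 1032 and 1071 in ET-3 and 1209 and 1129 in NT, and 5 of its 6 tested genes were called lower in each comparison, among them Pdgfrb at 227 and 278 in DMSO and between 3 and 13 in the treated libraries. Of the same list, Myh11 and Kcnj8 were at or near 0 throughout (at most 4). The endothelial list (6 genes) summed to 64 and 64 in DMSO and between 98 and 130 in the treated libraries. Of its 4 tested genes, 2 were called higher under ET-3 and 3 under NT and 1 lower in each, with Tek going from 2 and 1 in DMSO to between 42 and 70, while the defining markers Cdh5 and Pecam1 were at most 15 in any library. The macrophage list (4 genes) summed to between 27 and 70 and the Schwann cell list (4 genes) to 160 and 182 in DMSO and between 641 and 713 in the treated libraries, almost all of it Ngfr. In bulk RNA, fewer cells of a type and less RNA per cell cannot be told apart, and the part that the markers which moved play in the collagen values was not tested.

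Of the 40 chains, 29 had a mean value of at least 5 over the 6 libraries and were tested. Of these 29, 25 reached a mean of 5 in each of the groups, Col1a1, Col15a1 and Col23a1 fell under 5 in a treated group, and Col14a1 was under 5 in DMSO. The 11 chains left out (Col2a1, Col4a6, Col6a5, Col6a6, Col9a2, Col9a3, Col10a1, Col11a1, Col20a1, Col22a1 and Col28a1) had no value above 11 in any library. The means nearest the limit were 4.17 below it and 6.67 above it.

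Under ET-3, 4 chains were called higher and 17 lower by limma (adjusted p at most 0.05 and a change of at least 2-fold, that is 1 on the log2 scale), and 8 were not called. Over all 13921 genes tested, 6.62% were called higher and 14.9% lower in this comparison, against 13.8% and 58.6% of the chains tested. Under NT, 4 chains were called higher and 17 lower, where 7.3% of all genes tested were called higher and 13.2% lower. The 17 lower in each comparison include Col1a1, Col15a1 and Col23a1, and the 4 higher under NT include Col14a1. These chains were under a mean of 5 in a group and passed the filter through groups where they were higher. The tested chains had a median log2 fold change of -1.86 under ET-3 and -1.68 under NT, where the median of all genes tested was -0.01 in each. Both comparisons use the same DMSO libraries. By the adjusted p alone, with no limit on the fold, 6 chains were higher and 19 lower under ET-3, where 30.6% of all genes tested were higher and 33.2% lower, and 7 were higher and 20 lower under NT, where 29.7% of all genes were higher and 32.5% lower. With each treated pair taken as 1 sample, 3 chains were called higher and 14 lower under ET-3, and 2 higher and 14 lower under NT. The shares of all genes above belong to the main fit, and none is given for this setting. These counts therefore cannot be set against a background. In the distribution of fold changes the 17 chains called lower lie on its lower side, as the fold limit of a call requires. They reach up to Col4a5, the 1996th lowest of 13921 genes under ET-3. Col8a1 (-0.88 under ET-3 and -0.70 under NT) and Col3a1 (-0.65 and -0.55) lay below 0 by less than 2-fold. The others were near 0 or in the upper tail.

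**Figure D1:**
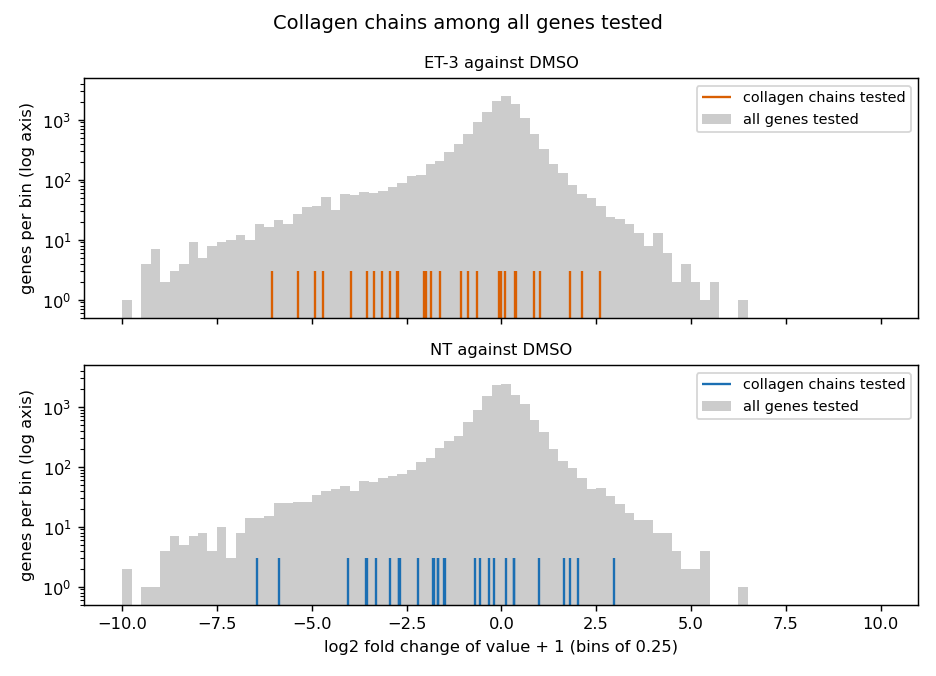
Log2 fold change of all 13921 genes tested (grey, genes per bin of 0.25, log axis) with the 29 tested collagen chains as coloured ticks, for ET-3 (upper) and NT (lower) against the same DMSO libraries. The chains reach from -6.04 to 2.61 under ET-3 and from -6.44 to 2.97 under NT, with medians of -1.86 and -1.68 where all genes have -0.01.

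Fibrillar chains were the largest group, with 9 of 11 tested. In each comparison 6 of the 9 were called lower (Col1a1, Col1a2, Col5a1, Col5a3, Col11a2 and Col24a1) and 1 higher (Col27a1), while Col3a1 and Col5a2 stayed within 2-fold of DMSO. Over all genes tested, 14.9% were called lower and 6.62% higher under ET-3, and 13.2% and 7.3% under NT. Type I collagen, the main fibril of tendon and scar, is in its main form built from the chains of Col1a1 (chr11:94936224-94953042) and Col1a2 (chr6:4504814-4541544). Col1a1 was at 148 and 146 in DMSO, at 7 and 2 in ET-3 and at 8 and 8 in NT. The treated libraries lay far below both DMSO libraries, with a log2 fold change of -4.92 ± 0.42 (SE) for ET-3 and -4.04 ± 0.42 for NT (limma adjusted p 3.84e-06 and 1.67e-05). Col1a2 was at 845 and 797 in DMSO, 86 and 72 in ET-3 and 110 and 103 in NT, a change of -3.37 ± 0.10 and -2.93 ± 0.10 (limma adjusted p 3.47e-09 and 8.55e-09). Per length, Col1a1 stood at 0.332 and 0.347 of Col1a2 in DMSO, and between 0.0526 and 0.154 of it in the treated libraries.

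Type V collagen, which sits in the core of fibrils and sets their width, divided by chain. Col5a2 (chr1:45374321-45503282), the chain shared by its main heterotrimers, was at 2292 and 2344 in DMSO, 2269 and 2196 in ET-3 and 2081 and 1988 in NT. The ET-3 libraries sat just under the DMSO ones (log2 fold change -0.05 ± 0.04, limma adjusted p 0.297, turning to 0.03 when scaled to library totals), and the NT libraries somewhat lower (-0.19 ± 0.04, adjusted p 0.00353). Col5a1 (chr2:27886425-28039514), the other chain of the main heterotrimer, went from 1758 and 1795 in DMSO to 450 and 412 in ET-3 and 597 and 512 in NT. Its log2 fold change was -2.04 ± 0.07 for ET-3 and -1.68 ± 0.07 for NT (limma adjusted p 9.71e-09 and 3.87e-08). Col5a3 (chr9:20770050-20815067), a chain found in a rarer heterotrimer, went from 929 and 945 in DMSO to 98 and 111 in ET-3 and 163 and 133 in NT, with log2 fold changes of -3.16 ± 0.10 and -2.66 ± 0.10 (limma adjusted p 5.50e-09 and 1.84e-08). Per length, Col5a1 was at 0.866 and 0.865 of Col5a2 in DMSO, at 0.224 and 0.212 in ET-3 and at 0.324 and 0.291 in NT. Col5a3 was at 0.571 and 0.568 of Col5a2 in DMSO and at between 0.0608 and 0.11 of it in the treated libraries. The calcitonin receptor gene Calcr was itself at 3 or less in every library and was not tested.

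Col3a1 (chr1:45311538-45349706), the fibrillar chain of elastic and healing tissue, was at 1420 and 1577 in DMSO, 922 and 991 in ET-3 and 1061 and 989 in NT. All 4 treated libraries were below both DMSO libraries, but by less than 2-fold, with log2 fold changes of -0.65 ± 0.06 and -0.55 ± 0.06 (limma adjusted p 9.50e-06 and 3.34e-05). Col3a1 and Col5a2 lie tail to tail on chromosome 1 with 24.6 kb between them. Col11a2 (chr17:34039437-34066685), a chain of cartilage fibrils, was at 203 and 229 in DMSO and at 19 and 16 in both the ET-3 and the NT libraries, a log2 fold change of -3.55 ± 0.21 in each. Col24a1 was at 22 and 31 in DMSO, at 6 and 7 in ET-3 and at 7 and 8 in NT (log2 fold change -1.86 ± 0.34 and -1.68 ± 0.34), and its calls were lost with each treated pair as 1 sample (limma adjusted p 0.061 and 0.0722).

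Col27a1 (chr4:63214004-63334991), a fibrillar chain known from cartilage, went the other way. It was at 34 and 39 in DMSO, 170 and 155 in ET-3 and 140 and 164 in NT, and the treated libraries lay well above DMSO with no overlap. The log2 fold change was 2.13 ± 0.14 for ET-3 and 2.03 ± 0.14 for NT (limma adjusted p 5.90e-07 and 8.85e-07), the 225th and the 272nd highest of all genes tested.

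**Figure D2:**
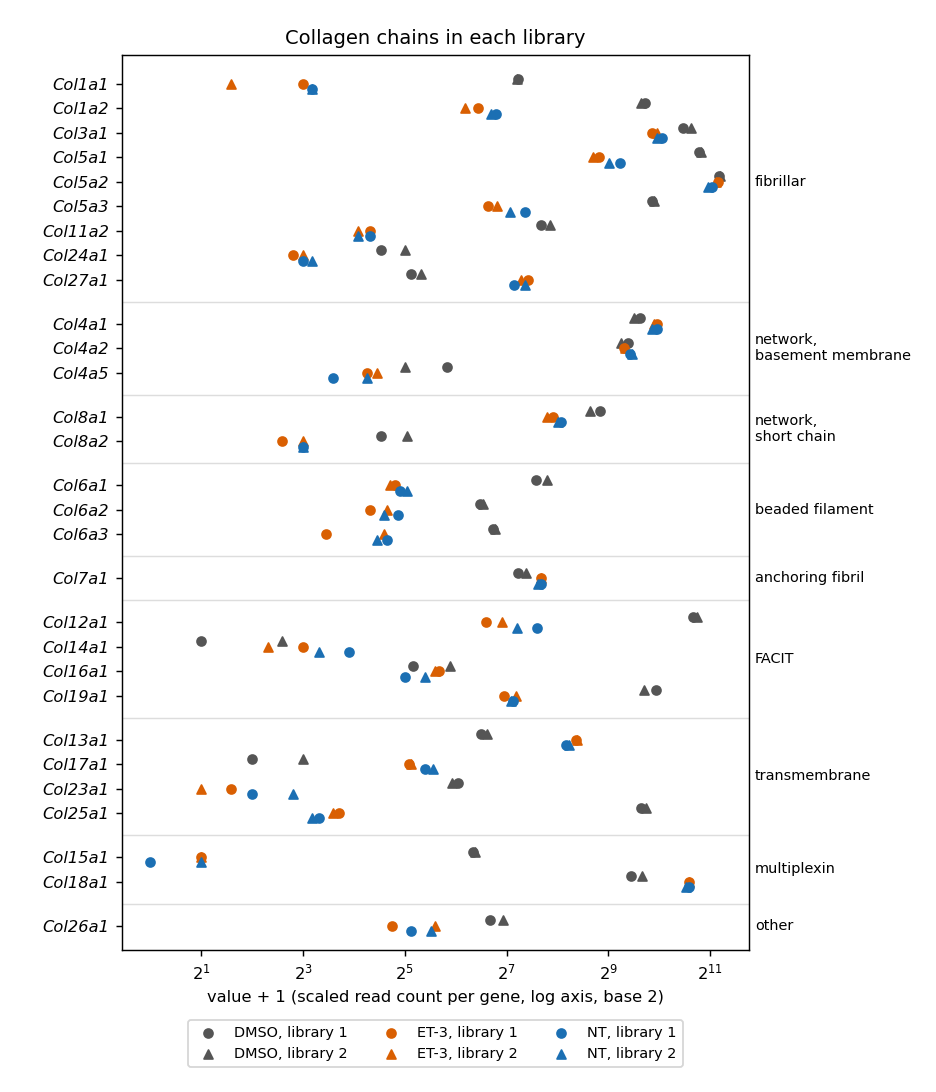
Value + 1 of the 29 tested collagen chains in each of the 6 libraries (log axis, base 2), grouped by class; circles and triangles are libraries 1 and 2 of DMSO (grey), ET-3 (orange) and NT (blue). The treated libraries lie left of DMSO for most fibrillar, beaded filament and other chains, on top of it for Col5a2 and Col4a2, and right of it for Col27a1, Col13a1, Col17a1 and Col18a1.

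Of 3 tested network chains of the basement membrane, Col4a1 and Col4a2 stayed within 2-fold of DMSO and Col4a5 was called lower in each comparison. Col4a1 and Col4a2, which combine in the common type IV network, lie head to head on chromosome 8 and their annotated starts overlap by a few bases. Col4a1 (chr8:11198423-11312826) was at 787 and 725 in DMSO, 991 and 947 in ET-3 and 987 and 928 in NT. The 4 treated libraries were all above both DMSO libraries, with log2 fold changes of 0.36 ± 0.06 and 0.34 ± 0.06 (limma adjusted p 2.71e-04 and 3.99e-04), which is under 2-fold. Col4a2 (chr8:11312805-11449287) was at 670 and 607 in DMSO, 629 and 641 in ET-3 and 689 and 707 in NT. The ET-3 libraries fell between the DMSO ones and the NT libraries just above them, with log2 fold changes of -0.01 ± 0.06 and 0.13 ± 0.06 (limma adjusted p 0.929 and 0.066), and the sign under ET-3 turned with the scaling (0.08 with library totals). Per length, Col4a1 was at 1.04 and 1.06 of Col4a2 in DMSO and at 1.16 to 1.4 of it in the treated libraries. Col4a5 (chrX:141475385-141689234), a chain of a second type IV network, was at 56 and 31 in DMSO, 18 and 21 in ET-3 and 11 and 18 in NT. The DMSO libraries themselves differed widely, and the call for ET-3 (log2 fold change -1.06 ± 0.35, limma adjusted p 0.0211) was lost in 7 of 15 other settings and that for NT (-1.50 ± 0.35, adjusted p 0.00362) in 3; without DMSO library 1 the values were -0.65 (adjusted p 0.202) and -1.08 (adjusted p 0.0657).

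The promoter windows of Col4a1 and Col4a2 are shown because both chains are started from 1 short stretch of DNA. The windows run from 250 bases before to 50 bases after the RefSeq start site, on GRCm38.p6, and are printed 5′ to 3′ on the strand of the gene. Capitals mark matches, on either strand, to CCAAT and to the GC box GGGCGG, to the TATA box TATAAA and to the E-box CANNTG (no E-box or TATA match fell in these windows).
Col4a1 (chr8:11312777-11313076, minus strand): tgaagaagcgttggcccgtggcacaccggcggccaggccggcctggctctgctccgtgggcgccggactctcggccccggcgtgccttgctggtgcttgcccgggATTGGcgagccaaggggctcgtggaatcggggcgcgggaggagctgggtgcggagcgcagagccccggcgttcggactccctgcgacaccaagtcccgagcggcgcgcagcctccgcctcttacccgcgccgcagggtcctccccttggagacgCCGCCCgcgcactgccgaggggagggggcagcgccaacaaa
Col4a2 (chr8:11312555-11312854, plus strand): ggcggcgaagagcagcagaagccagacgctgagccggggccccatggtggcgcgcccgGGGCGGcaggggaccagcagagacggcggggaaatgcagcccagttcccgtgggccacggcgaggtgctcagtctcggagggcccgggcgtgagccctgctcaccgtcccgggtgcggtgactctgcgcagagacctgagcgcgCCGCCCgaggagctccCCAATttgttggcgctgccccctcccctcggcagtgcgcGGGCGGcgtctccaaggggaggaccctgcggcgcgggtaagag
The windows share 78 bases. The GC box 9 bases after the Col4a1 start and the one 7 bases after the Col4a2 start are the same bases, chr8:11312812-11312817, read from opposite strands. CCAAT matched 145 bases before the Col4a1 start and 32 bases before the Col4a2 start, and Col4a2 had further GC boxes 192 and 48 bases before its start.

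Short-chain network collagens, which form hexagonal lattices, had 2 of 3 chains tested. Col8a1 (chr16:57624258-57754737) was at 455 and 396 in DMSO, 238 and 222 in ET-3 and 267 and 255 in NT, so that all treated libraries were below both DMSO libraries by less than 2-fold (log2 fold change -0.88 ± 0.08 and -0.70 ± 0.08, limma adjusted p 6.04e-06 and 3.35e-05). Col8a2 was at 22 and 32 in DMSO, 5 and 7 in ET-3 and 7 and 7 in NT, with log2 fold changes of -1.99 ± 0.35 and -1.78 ± 0.35. Its calls were lost with each treated pair as 1 sample (limma adjusted p 0.0616 and 0.0727).

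The beaded filament chains of type VI collagen, which links cells to the surrounding matrix and is mutated in muscular dystrophies, were called lower for all 3 chains tested. The shares of all genes called lower were 14.9% under ET-3 and 13.2% under NT. Col6a1 (chr10:76708792-76726168) was at 189 and 221 in DMSO, 27 and 25 in ET-3 and 29 and 32 in NT. Col6a2 (chr10:76595762-76623630), on the same strand 85.2 kb away, was at 88 and 92 in DMSO, 19 and 24 in ET-3 and 28 and 23 in NT. Col6a3 (chr1:90765923-90843971), the longest of these chains, was at 105 and 108 in DMSO, 10 and 23 in ET-3 and 24 and 21 in NT. Each treated library was below both DMSO libraries for each of these 3 chains. How many of all genes show such a separation was not counted. The log2 fold changes under ET-3 were -2.93 ± 0.17 for Col6a1, -2.02 ± 0.22 for Col6a2 and -2.73 ± 0.33 for Col6a3, and under NT they were -2.71, -1.79 and -2.20, with limma adjusted p between 3.29e-07 and 2.40e-04. Col6a5 and Col6a6 were too low to be tested. The single anchoring fibril chain, Col7a1, which ties the basement membrane to the tissue below it in skin, was at 148 and 165 in DMSO, 203 and 203 in ET-3 and 202 and 195 in NT, a difference of less than 2-fold (log2 fold change 0.38 ± 0.09 and 0.34 ± 0.09, limma adjusted p 0.00331 and 0.0058).

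**Figure D3:**
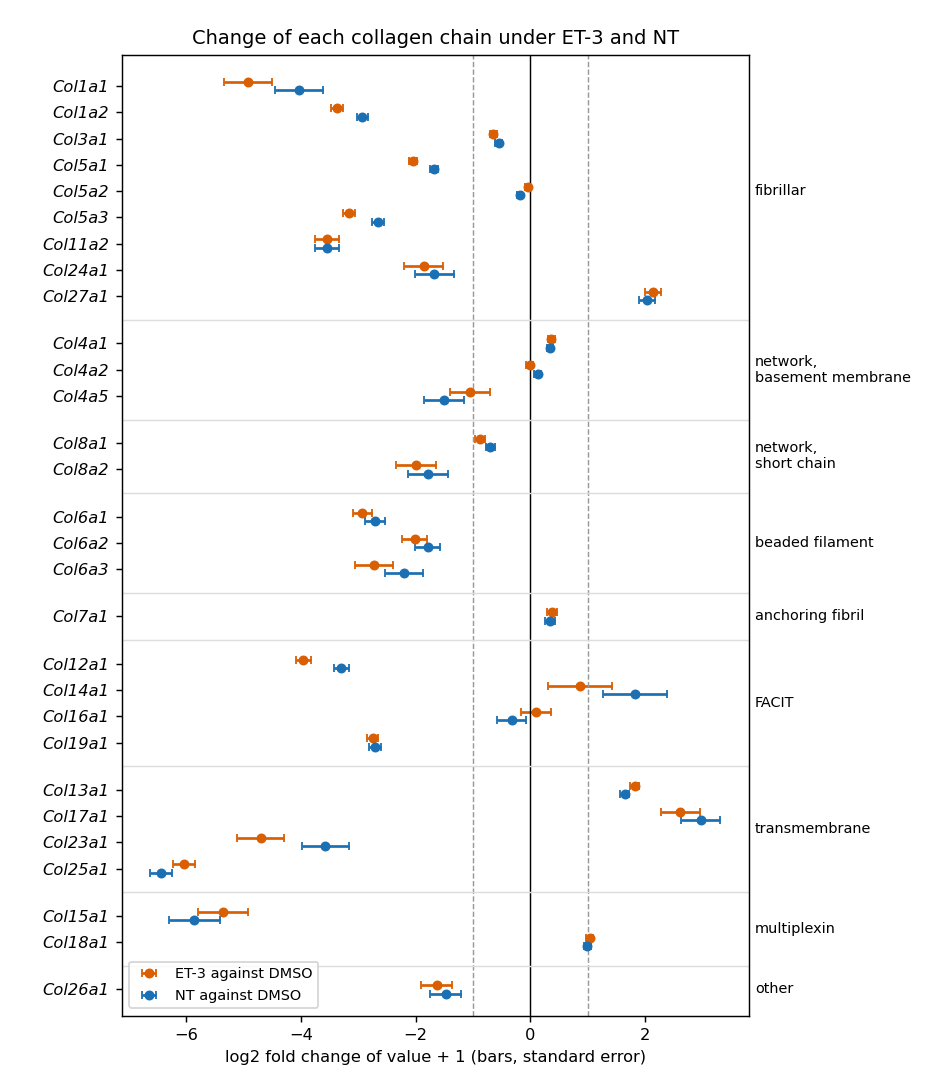
Log2 fold change of value + 1 (points) with its standard error (bars, limma) for each tested collagen chain under ET-3 (orange) and NT (blue) against DMSO, by class; dashed lines mark 2-fold. The 2 treatments lie within 1.11 of each other, the widest gap being that of Col23a1, the 3 beaded filament chains are all left of the lower line, and the transmembrane chains lie on both sides, from -6.04 for Col25a1 to 2.61 for Col17a1 under ET-3.

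FACIT chains had 4 of 8 tested, and in each comparison 2 of the 4 were called lower (14.9% of all genes under ET-3 and 13.2% under NT). Col12a1 (chr9:79598991-79718831), found on type I fibrils of muscle and tendon, was at 1618 and 1716 in DMSO, 95 and 119 in ET-3 and 193 and 146 in NT. The group means were 0.0642 and 0.102 of DMSO, with log2 fold changes of -3.96 ± 0.13 and -3.30 ± 0.13 (limma adjusted p 6.68e-09 and 2.36e-08). Col19a1 (chr1:24261890-24587472), a basement membrane zone chain that differentiating muscle cells are known to express, was at 974 and 834 in DMSO, 123 and 145 in ET-3 and 139 and 134 in NT (log2 fold change -2.75 ± 0.10 and -2.71 ± 0.10, limma adjusted p 1.03e-08 and 1.25e-08). Col16a1 was at 35 and 58 in DMSO, 50 and 47 in ET-3 and 31 and 41 in NT; these groups overlapped, the log2 fold changes were 0.10 ± 0.26 and -0.33 ± 0.26 (limma adjusted p 0.752 and 0.297), and the sign under ET-3 turned to -0.25 without DMSO library 1 and that under NT to 0.03 without DMSO library 2. Col14a1, another fibril-surface chain, was near the limit of detection at 1 and 5 in DMSO, 7 and 4 in ET-3 and 14 and 9 in NT. It was called higher under NT (log2 fold change 1.82 ± 0.56, limma adjusted p 0.0164) and not under ET-3 (0.87 ± 0.56, adjusted p 0.199), the NT call was lost in 5 of 15 other settings, among them leaving out DMSO library 1 or either NT library (adjusted p 0.123, 0.14 and 0.0571), and the direct difference of NT from ET-3 was 0.95 ± 0.56 (adjusted p 0.385). The other 4 FACIT chains, Col9a2, Col9a3, Col20a1 and Col22a1, were too low to be tested.

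The 4 transmembrane chains were all tested, and in each comparison 2 were called higher and 2 lower. Among all genes, 6.62% were called higher and 14.9% lower under ET-3, and 7.3% and 13.2% under NT. Col25a1 (chr3:130131501-130599877), which muscle makes and which motor axons need to grow into it, was at 793 and 852 in DMSO, at 12 and 11 in ET-3 and at 9 and 8 in NT. Its log2 fold change was -6.04 ± 0.19 for ET-3 and -6.44 ± 0.19 for NT (limma adjusted p 4.27e-09 and 4.06e-09), the 120th and the 80th lowest of the 13921 genes tested. Col23a1 (chr11:51289920-51583918) was at 65 and 60 in DMSO, 2 and 1 in ET-3 and 3 and 6 in NT. With 118 reads in DMSO and 3 in ET-3, the fold was 36.5 (95% exact interval 12.2 to 180, counting error only), and the limma log2 fold changes were -4.70 ± 0.41 and -3.58 ± 0.41.

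Col13a1 (chr10:61838236-61979108), which is needed at the neuromuscular junction, was at 89 and 97 in DMSO, 329 and 331 in ET-3 and 285 and 298 in NT. The group means were 3.55 and 3.13 times that of DMSO, with log2 fold changes of 1.82 ± 0.08 and 1.64 ± 0.08 (limma adjusted p 3.72e-08 and 8.13e-08). Col17a1 (chr19:47646344-47692094), the collagen of the hemidesmosome that fixes skin cells to their basement membrane, was at 3 and 7 in DMSO, 33 and 34 in ET-3 and 41 and 46 in NT. The log2 fold change was 2.61 ± 0.34 and 2.97 ± 0.34 (limma adjusted p 9.17e-05 and 3.83e-05), the 134th and the 101st highest of all genes tested, and both calls were lost with each treated pair as 1 sample (adjusted p 0.0879 and 0.0783). Col13a1 stood per length at 0.316 and 0.32 of Col25a1 in DMSO, at 77.1 and 84.6 times its level in ET-3 and at 89 and 105 times its level in NT.

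The promoter windows of these 4 chains are shown because they belong to 1 class and moved in opposite directions. Build, window and capitals are as above.
Col13a1 (chr10:61979059-61979358, minus strand): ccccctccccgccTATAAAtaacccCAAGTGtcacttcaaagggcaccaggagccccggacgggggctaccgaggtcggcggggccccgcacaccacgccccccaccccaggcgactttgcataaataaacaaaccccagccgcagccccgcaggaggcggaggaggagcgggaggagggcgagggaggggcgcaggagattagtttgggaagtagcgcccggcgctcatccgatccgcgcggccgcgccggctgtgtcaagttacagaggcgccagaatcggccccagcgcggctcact
Col17a1 (chr19:47691993-47692292, minus strand): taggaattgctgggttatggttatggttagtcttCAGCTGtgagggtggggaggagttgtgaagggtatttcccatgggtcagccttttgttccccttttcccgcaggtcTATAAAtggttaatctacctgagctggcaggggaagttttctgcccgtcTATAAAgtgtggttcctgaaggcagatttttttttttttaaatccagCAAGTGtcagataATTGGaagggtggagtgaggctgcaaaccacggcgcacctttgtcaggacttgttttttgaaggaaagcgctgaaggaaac
Col23a1 (chr11:51289670-51289969, plus strand): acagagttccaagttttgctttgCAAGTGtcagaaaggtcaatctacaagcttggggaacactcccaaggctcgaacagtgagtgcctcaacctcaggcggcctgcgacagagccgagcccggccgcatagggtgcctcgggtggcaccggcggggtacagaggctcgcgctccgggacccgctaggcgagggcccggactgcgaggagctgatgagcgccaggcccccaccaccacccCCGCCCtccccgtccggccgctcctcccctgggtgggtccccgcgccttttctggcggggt
Col25a1 (chr3:130180595-130180894, plus strand): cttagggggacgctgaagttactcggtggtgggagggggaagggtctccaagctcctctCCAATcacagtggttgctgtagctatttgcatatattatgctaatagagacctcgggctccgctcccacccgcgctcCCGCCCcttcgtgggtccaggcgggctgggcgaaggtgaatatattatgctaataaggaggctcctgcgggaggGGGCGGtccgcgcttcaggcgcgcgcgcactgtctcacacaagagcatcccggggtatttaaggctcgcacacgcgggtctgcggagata
The 2 chains that rose each held TATAAA, 237 bases before the start in Col13a1 and 140 and 91 bases before it in Col17a1, and no GC box. The 2 chains that fell each held a GC box, 11 bases before the start in Col23a1 and 114 and 40 bases before it in Col25a1, and no TATAAA. The RefSeq start used for Col25a1 lies 49.3 kb inside the gene by the Ensembl positions deposited with the values, so its window belongs to 1 of its start sites. The other chains called higher under ET-3, Col18a1 and Col27a1, held GC boxes and no TATAAA, while Col11a2, called lower, held TATAAA and GC boxes. The division by direction thus held within this class and not over the chains. These matches describe the letters of the windows alone.

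RefSeq windows were matched by symbol for 32 of the 40 chains and for 12188 genes of the table, which serve as the background. The sequence TATAAA occurred in 15.6% of the chains' windows and in 7.84% of all windows, GGGCGG in 65.6% and 61.4%, and CCAAT in 34.4% and 38.3%. CANNTG, the general form of the E-box that myogenic factors such as MyoD bind, occurred in 56.2% of the chains' windows and 64.1% of all, and its form CAGCTG, which is counted in both, in 21.9% and 15.7%. The CArG box and the MEF2 site had no match among the 32 windows, against 1.33% and 0.558% of all windows. Of the 14 chains called lower under ET-3 that had a window, 8 held CANNTG, and of the 4 called higher, 3 did. GGGCGG was in 9 of the 14 called lower and in 2 of the 4 called higher. TATAAA was in 1 of the 14 and in 2 of the 4.

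Multiplexins, basement membrane collagens that carry sugar chains, moved apart. Col18a1 (chr10:77052178-77166548), whose end is released as endostatin, was at 697 and 808 in DMSO, 1538 and 1535 in ET-3 and 1527 and 1460 in NT. The treated libraries were close together and above both DMSO libraries, with log2 fold changes of 1.03 ± 0.06 for ET-3 and 0.99 ± 0.06 for NT (limma adjusted p 4.45e-07 and 6.28e-07), on either side of the 2-fold limit. Without DMSO library 1 the ET-3 change was 0.93, and the NT change reached 1.10 when scaled to library totals. Col15a1 (chr4:47208161-47313167), a chain of the muscle and vessel basement membrane, was at 80 and 82 in DMSO, 1 and 1 in ET-3 and 0 and 1 in NT. With 153 reads in DMSO against 2 in ET-3 and 1 in NT, the folds were 71 (95% exact interval 19.3 to 592) and 198 (35.1 to 7885), for counting error only. The limma log2 fold changes were -5.36 ± 0.44 and -5.86 ± 0.44 and depend on the pseudocount. Col26a1, which is not placed in these classes, was at 101 and 121 in DMSO, 26 and 47 in ET-3 and 34 and 45 in NT (log2 fold change -1.63 ± 0.27 and -1.48 ± 0.27, limma adjusted p 4.49e-04 and 9.14e-04); without DMSO library 2 the NT call was lost (-1.35, adjusted p 0.058).

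Divided by exon length, the values of all 40 chains summed to 1685 and 1712 per kb in DMSO, 1049 and 1047 in ET-3 and 1082 and 1039 in NT, so that the treated sums were 0.617 and 0.624 of the DMSO mean. These sums carry no test. Fibrillar chains held 50.6% and 51.6% of the sum in DMSO and between 39.7% and 41% in the treated libraries. FACIT chains held 15.2% and 14.4% in DMSO and between 3.24% and 3.71% in the treated libraries, and beaded filament chains went from 3.8% and 4.2% to between 0.906% and 1.15%. Basement membrane network chains went from 12.8% and 11.3% to between 21.7% and 22.5%, with a summed level per kb that was 1.12 times DMSO in ET-3 and 1.16 times in NT. Multiplexins went from 6.64% and 7.48% to between 20% and 20.9%, and nearly all of that was Col18a1. Transmembrane chains held 5.49% and 5.75% in DMSO and between 6.46% and 7.5% in the treated libraries. Their summed level per kb was itself lower, at 0.821 of DMSO in ET-3 and 0.754 in NT, with Col13a1 higher and Col25a1 lower.

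**Figure D4:**
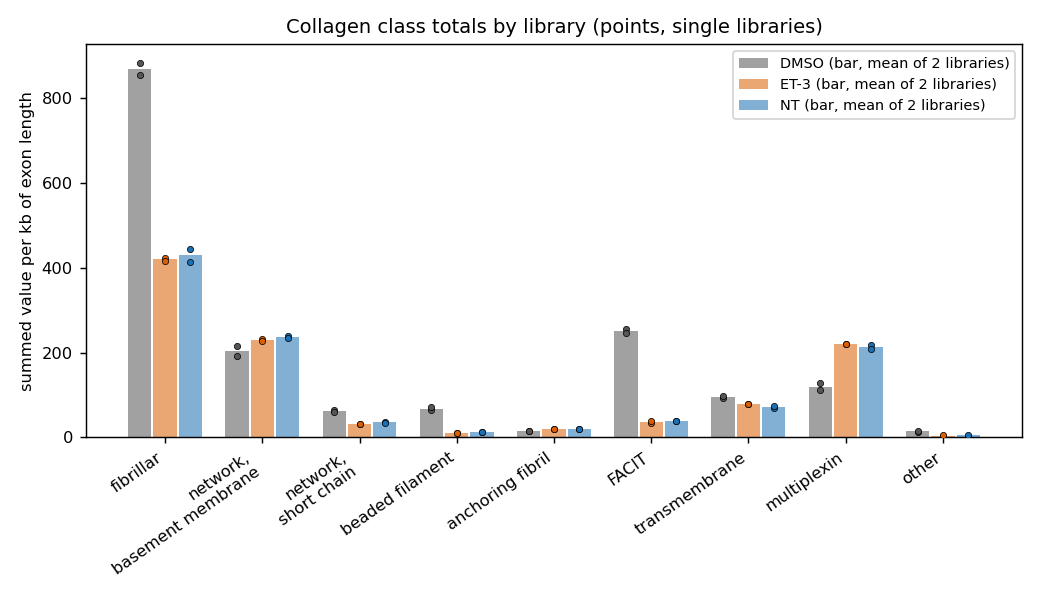
Summed value per kb of exon length for each collagen class, with bars at the mean of the 2 libraries of a group and points for single libraries. The fibrillar bar drops from 868 in DMSO to 419 in ET-3 and 429 in NT and the FACIT bar from 251 to 36.4 and 38.9, while the multiplexin bar goes from 120 to 219 and 213.

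Among single chains, Col5a2 had the highest level per kb in DMSO, at 239 and 244, followed by Col5a1 at 207 and 211 and Col3a1 at 145 and 161. In ET-3 the order was Col5a2 (237 and 229), Col18a1 (219 and 219) and Col4a1 (133 and 127). In NT, Col18a1 (217 and 208) and Col5a2 (217 and 207) were level, followed by Col4a1 (132 and 124). The lengths cover the exons of all annotated isoforms together, which lowers the level per kb of chains with many isoforms.

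NT and ET-3 were also compared with each other. By limma no chain was called, 9 of the 29 had an unadjusted p under 0.05 (19.9% of all genes tested had one), and 7 genes of the whole table were called higher and 4 lower. By adjusted p alone, 3 chains were higher in NT than in ET-3, where 0.647% of all genes tested were: Col12a1 (log2 difference 0.65 ± 0.13, limma adjusted p 0.042), Col5a1 (0.36 ± 0.07, adjusted p 0.042) and Col5a3 (0.49 ± 0.10, adjusted p 0.0424). For each of these 3 chains both NT libraries were above both ET-3 libraries, and all of these were below DMSO. The chains were picked by the adjusted p of the same values, so this separation is no further evidence. These differences held with library totals or upper quartiles as scaling, with a pseudocount of 5 and with a mean value of at least 50, and were lost in the other settings tried, leaving out any 1 library included, with adjusted p up to 0.712.

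Genes that make, process or bind collagen were counted from lists. Of 13 hydroxylases and glycosyltransferases, which modify the chains in the endoplasmic reticulum, 2 were called lower (15.4%) and 1 higher (7.69%) in each comparison, close to the shares of all genes given above. P4ha1, a catalytic subunit of prolyl 4-hydroxylase, was at 881 and 822 in DMSO, 318 and 360 in ET-3 and 358 and 344 in NT. Plod2, a lysyl hydroxylase, was at 935 and 893 in DMSO, 430 and 410 in ET-3 and 435 and 455 in NT, while the prolyl 3-hydroxylase P3h3 rose from 48 and 62 to 163 and 127 in ET-3 and 169 and 180 in NT. The median log2 fold change of the list was -0.03 for ET-3 and -0.09 for NT.

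Of 14 chaperone and secretion genes, 2 were called lower under ET-3 (14.3%) and 1 under NT (7.14%), and none higher. This was at or under the 14.9% and 13.2% of all genes called lower. The list medians were -0.14 and -0.28. By adjusted p alone, 2 were higher and 7 lower under ET-3, and 3 higher and 10 lower under NT. Of all genes, 30.6% were higher and 33.2% lower by that rule under ET-3, and 29.7% and 32.5% under NT. Fkbp14, a prolyl isomerase that acts on collagens, was called in both (log2 fold change -1.37 and -1.67, limma adjusted p 1.34e-05 and 3.59e-06). Serpinh1, the collagen chaperone HSP47, was at 1481 and 1587 in DMSO, 1481 and 1389 in ET-3 and 1190 and 1136 in NT, within 2-fold.

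Of 10 tested procollagen proteinases, enhancers and cross-linking enzymes, 5 were called lower (50%) and 1 higher (10%) in each comparison, with list medians of -1.08 and -1.02. Of all genes, 14.9% were called lower and 6.62% higher under ET-3, and 13.2% and 7.3% under NT. Adamts2, which removes the amino end of procollagens, was at 96 and 112 in DMSO, 13 and 12 in ET-3 and 15 and 10 in NT. Pcolce, which enhances removal of the carboxyl end, was at 651 and 726 in DMSO, 101 and 137 in ET-3 and 166 and 128 in NT. The lysyl oxidase-like enzymes Loxl1 (log2 fold change -1.64 and -1.37) and Loxl2 (-2.29 and -2.05) were called lower as well, as was Loxl3. Adamts14, a relative of Adamts2 with the same kind of activity, rose from 553 and 427 in DMSO to 1125 and 1097 in ET-3 and 1031 and 1054 in NT.

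Of 7 tested fibril-binding proteoglycans and glycoproteins, 4 were called lower under ET-3 (57.1%) and 3 under NT (42.9%), where 14.9% and 13.2% of all genes were. Ogn (osteoglycin, a small leucine-rich proteoglycan) was at 919 and 945 in DMSO, 11 and 3 in ET-3 and 14 and 9 in NT. Its relative Aspn (asporin) was at 54 and 40 in DMSO and at 0 in all 4 treated libraries, and Fmod (fibromodulin) went from 34 and 33 to between 2 and 7. Fn1, fibronectin, was between 2922 and 3362 in all libraries. Of 10 tested collagen receptors, 1 was called higher (10%) and 1 lower (10%) in each comparison, near the shares of all genes. These were 6.62% higher and 14.9% lower under ET-3, and 7.3% and 13.2% under NT. Itga2, the alpha chain of the collagen-binding integrin alpha2beta1, rose from 4 and 2 in DMSO to 61 and 46 in ET-3 and 47 and 72 in NT. Itga10, the alpha chain of another collagen-binding integrin, fell from 98 and 103 to 18 and 16 in ET-3 and 19 and 23 in NT.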

How the data were processed

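The members were chosen by symbol, and the gene lists were written with earlier results of these data known. Per the study's methods, the authors aligned trimmed reads with STAR (build mm10, GRCm38) and had featureCounts assign unique reads to exons; the submitters' processing notes name Trimmomatic 0.38, STAR 2.7.7a, featureCounts 1.6.5 and DESeq2 1.30.0. The methods and the labels name different library kits. The deposited values are a score, whole numbers that follow read counts scaled by 1 factor per library and rounded, so no count model was used. The factor, fitted here from how often each number occurs, lay between 0.7810 and 1.1915, and reads were estimated from it. Log2(value + 1) was fitted with limma 3.58.1 (R 4.3.3, mean-variance trend, all 6 libraries, no block), leaving out genes whose mean value was under 5, with Benjamini-Hochberg adjustment over 13921 genes. The fit was tested on simulated data. Calls required 2-fold and an adjusted p no higher than 0.05. Chains that passed the filter are named, and partner genes called in both comparisons with DMSO, at most 4 per list by size, and Calcr; Serpinh1, Fn1, Adamts14, Loxl3 and the marker genes outside this rule were picked after their values were seen. Gene positions are the Ensembl ones deposited with the values, exon lengths are GENCODE (GRCm38) and promoters RefSeq (GRCm38.p6). Library numbers did not pair the libraries. Alternatives in scaling, pseudocount, filter, groups fitted, block and left-out libraries were run.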

Additional observations from a re-analysis of the deposited data

How the results depend on the processing

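The counts of chains called against DMSO moved with few settings. With genes of a mean value of at least 50 alone, 10 chains were called lower under ET-3 and 10 under NT, and 2 higher under NT, since fewer chains were tested. With the adjusted p alone, 6 chains were higher and 19 lower under ET-3 (30.6% and 33.2% of all genes tested), 7 higher and 20 lower under NT (29.7% and 32.5%), and 3 higher in NT against ET-3. With each treated pair as 1 sample, 2 were higher under NT. Leaving out 1 library gave 3 to 5 chains higher and 16 to 17 lower in each comparison with DMSO, and 0 in NT against ET-3. Shares of all genes are given for the main fit and for the adjusted p alone. The counts of chains under the other settings stand without such a share. With library totals as scaling, the median of all genes shifted to 0.08 (ET-3) and 0.10 (NT) on the log2 scale. The class sums per kb moved as well, given here as log2 ratios to DMSO for ET-3 and NT. All classes went from -0.70 and -0.68 to -0.61 and -0.57, and fibrillar chains from -1.05 and -1.02 to -0.96 and -0.90. Short chain network went from -0.99 and -0.80 to -0.90 and -0.69, and transmembrane chains from -0.28 and -0.41 to -0.19 and -0.29. Under NT alone, basement membrane network went from 0.21 to 0.32 and FACIT from -2.69 to -2.58. The sign turned for 3 uncalled chains: Col4a2 under ET-3 (0.08 with library totals, 0.04 with upper quartiles, 0.06 without DMSO library 1 and 0.01 without ET-3 library 1, with values from -0.08 to 0.06 over all left-out libraries), Col5a2 under ET-3 (0.03 with library totals) and Col16a1 (-0.25 under ET-3 without DMSO library 1, with values up to 0.46 over the left-out libraries, and 0.03 under NT without DMSO library 2). The cause was not tested. With the replicate block, 4 chains were called higher and 17 lower in each comparison with DMSO and 0 in NT against ET-3, and the differences of Col12a1, Col5a1 and Col5a3 between NT and ET-3 lost significance (limma adjusted p 0.0731, 0.0691 and 0.0739); same-numbered libraries shared only a number, with deviations correlated at between -0.0704 and -0.00798 over genes. At values under about 10, single reads decide the fold of a chain.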

Other observations

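Genes outside the collagen family proper that also carry a collagen-like repeat moved in both directions. A list of 22 such genes and collagen-related glycoproteins, written after the data were seen, had 17 in the table and 12 that were tested. C1qtnf3, a secreted C1q/TNF-related protein, was at 916 and 1027 in DMSO, 150 and 179 in ET-3 and 156 and 149 in NT. Colq, the collagen tail that anchors acetylcholinesterase at the neuromuscular junction, was at 22 and 15 in DMSO and at 0 or 1 in the treated libraries. Cthrc1, a secreted protein with a collagen repeat, went from 240 and 274 in DMSO to 92 and 98 in ET-3 and 113 and 98 in NT. Ccbe1, a secreted protein of lymphatic vessel growth, went the other way, from 20 and 11 in DMSO to 193 and 207 in ET-3 and 199 and 201 in NT. The scavenger receptor-like gene Scara3 was at 14 and 25 in DMSO, 91 and 91 in ET-3 and 90 and 105 in NT.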
